A study of Mus musculus with 21 samples.

Results

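The genes described here are the 4 adult globin genes of the mouse, Hba-a1, Hba-a2, Hbb-bs and Hbb-bt. They were found by matching these symbols to Ensembl gene identifiers, and they are 4 of the 45706 genes counted in each of 21 RNA-seq libraries. Their levels and their share of all counts were followed over 3 sorted fractions and 3 genotypes of a mouse model of juvenile myelomonocytic leukemia (JMML), a myeloid neoplasia of childhood. Hba-a1 and Hba-a2 encode the alpha chain of adult hemoglobin, and Hbb-bs and Hbb-bt encode its beta chain. An alpha chain and a beta chain each carry a heme group, and pairs of both chains join to form the oxygen carrier of red cells. Erythroblasts and reticulocytes hold most of the globin mRNA of the bone marrow (BM), and the mouse spleen is a second site of red cell formation. Stem cells, progenitors and myeloid cells are not known for making hemoglobin. The library preparation was for mRNA, and the sources used here name no step that removes globin transcripts.

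The fractions were LSK cells of the BM (lineage-depleted cells with Sca-1 and c-Kit, which hold the stem and early progenitor cells), CD11b+ myeloid cells of the BM and CD11b+ myeloid cells of the spleen. Each fraction had 2 libraries from MxCre mice, 2 labelled Ptpn11D61Y/+ and 3 labelled S3, from terminally ill MxCre;Ptpn11D61Y/+ mice. MxCre mice carry Cre under the interferon-inducible Mx promoter and no Ptpn11 mutation, and Ptpn11D61Y/+ mice carry 1 mutant Ptpn11 allele, silenced by a Neo-Stop cassette, without Cre. The study's methods give poly I:C to all of these mice, which turns on Cre in S3 mice and lets the mutant SHP2 protein be made in hematopoietic cells, whereas the labels list no treatment. Mx-driven Cre acts in the whole hematopoietic system and not only in myeloid cells. The labels give no ages. By the animal numbers in the labels, S3 animals 540 and 815 gave all 3 fractions, animal 768 gave LSK cells and animal 640 gave both CD11b+ fractions. For CD11b+ cells the study's methods give 3 mice per genotype for S3 and MxCre, while MxCre has 2 libraries in each fraction. On this basis the CD11b+ libraries of S3 and MxCre are taken as separate mice, although the numbers differ for MxCre. The labels number the MxCre libraries and those labelled Ptpn11D61Y/+ without naming animals. Both spleen libraries labelled Ptpn11D61Y/+ came from mice of different sex, with 4753 and 0 counts of Xist, which is transcribed in female cells, and 0 and 1999 counts of the Y-linked gene Ddx3y. For LSK cells of both controls and BM cells labelled Ptpn11D61Y/+ separate animals are not stated in the sources used here, so p-values measure the spread between these libraries, which may be technical.

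The depth was 34992610 to 104509425 counts a library (median 69421661). Of 7 markers of LSK cells, 6 were called lower in BM CD11b+ than in LSK cells of S3 mice and Ly6a was not, where 27.1% of all genes were called and 2478 of 19555 were called lower. Ly6a, which encodes Sca-1, had 57.0 to 107 CPM in LSK libraries, 24.7 to 179 CPM in BM CD11b+ and 3.36 to 254 CPM in spleen CD11b+ libraries, so its level did not set the fractions apart. Kit, the stem cell factor receptor, had 404 to 764 CPM (counts scaled to the library total) in LSK libraries and at most 71.6 CPM in CD11b+ libraries. Cd34 had 502 to 739 CPM in LSK libraries and at most 13.0 CPM elsewhere. S100a9, a neutrophil and monocyte gene, had 9949 to 36611 CPM in BM CD11b+ libraries, 1522 to 35339 CPM in spleen CD11b+ libraries and 106 to 1152 CPM in LSK libraries. Itgam, which encodes CD11b, had 45.3 to 168 CPM in LSK libraries, and this range overlapped that of both CD11b+ fractions. Ptpn11, the gene that carries the mutation, had 95.7 and 86.8 CPM in the LSK libraries labelled Ptpn11D61Y/+, 163 and 172 CPM in MxCre and 196 to 217 CPM in S3. In both CD11b+ fractions the order was different, with 35.0 and 45.3 CPM in the BM libraries labelled Ptpn11D61Y/+ against 15.4 and 30.8 CPM in MxCre. In the spleen there were 68.3 and 34.2 CPM in the libraries labelled Ptpn11D61Y/+ against 10.9 and 22.9 CPM in MxCre, so these libraries are named by their labels throughout.

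Several libraries stood apart from the rest. Xist and Ddx3y were both counted in the BM library of animal 540 (2780 and 173 counts), in its spleen library (712 and 1275 counts) and in BM MxCre replicate 2 (2834 and 353 counts), while the LSK library of animal 540 had 1 count of Xist and 5083 of Ddx3y. Whether the libraries labelled with animal 540 come from 1 animal was not settled, and they are named below as labelled. Every other library had at most 17 counts of Xist or at most 1 count of a Y-linked gene. The LSK control libraries had at most 17 counts of Xist and 4619 to 7357 of Ddx3y. In LSK S3 animals 815 and 768 there were 39460 and 88850 counts of Xist and 0 of Ddx3y. Ddx3y had 4395 and 2500 counts in spleen MxCre and 0 in spleen S3 animal 815. Sex thus differed in part between S3 and control libraries, and its part in the results was not tested. The fewest genes were detected in 3 CD11b+ libraries, BM MxCre replicate 1 (14885 genes), spleen MxCre replicate 1 (14641) and BM S3 animal 815 (14761), against 17493 to 22865 in the other CD11b+ libraries and 22718 to 24220 in LSK libraries. BM MxCre replicate 1 also had 12403 CPM summed over 9 markers of red pulp macrophages, cells that take up old red cells, against 415 to 3423 CPM in the other BM CD11b+ libraries. C1qa was its most abundant marker with 168415 counts, and none of the 9 was at 0. Without the 3 libraries labelled with animal 540 and BM MxCre replicate 2, edgeR called 0 of 4 globin genes in S3 against MxCre LSK cells, and the log2 fold changes of this contrast in BM were 0.27 to 0.69. Without the 3 libraries with the fewest genes, 4 globin genes were called for the difference of this contrast between spleen and LSK. The part of the macrophage markers in the globin results was not tested.

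The alpha globin genes lie on chromosome 11 of GRCm38, Hba-a1 (ENSMUSG00000069919) at chr11:32283511-32284465 and Hba-a2 (ENSMUSG00000069917) at chr11:32296489-32297298, both on the plus strand. The beta globin genes lie on the minus strand of chromosome 7, Hbb-bs (ENSMUSG00000052305) at chr7:103826534-103828096 and Hbb-bt (ENSMUSG00000073940) at chr7:103812524-103813996. Each pair is nearly a copy. The transcripts of Hba-a1 and Hba-a2 were identical at 537 of 538 aligned bases, and their 426 coding bases differed at 1 position and encoded the same 142 residues. Hbb-bs and Hbb-bt were identical at 580 of 626 aligned transcript bases (92.7%), and their 441 coding bases differed at 1 position and encoded the same 147 residues. Of all stretches of 100 bases, the length of a read, 56.5% of those in Hba-a1 also occurred in Hba-a2 and 62.6% of those in Hbb-bs also occurred in Hbb-bt. An alpha and a beta gene shared 0 such stretches. How the authors counted reads that match both copies is not given in the sources used here, so the split within a pair is uncertain, whereas alpha and beta counts can be told apart.

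The bases just before the RefSeq transcription starts of the members are shown here. They were read from RefSeq's promoter table for GRCm38.p6, in which all 4 genes matched. Each line gives the 250 bases that end at the transcription start in RefSeq, 5′ to 3′ on the gene's strand. The gene coordinates above are from GENCODE, whose starts lie upstream of those of RefSeq for all 4 genes. Part of each window thus lies within the gene as given above, for Hba-a2 only its last bases. Capitals mark 4 sets of letters, searched on both strands, whose matches did not overlap. The TATA box was searched as ATATAA and the CCAAT box by the letters of its name. The CACCC box, which factors such as Klf1 bind, was searched by its name as well, and the core of GATA factor sites was searched as GATAA. The window of Hba-a1 held the same bases as that of Hba-a2 over all 247 aligned positions and is not repeated. The windows are chr11:32296242-32296491 on the plus strand for Hba-a2, and chr7:103827929-103828178 and chr7:103813924-103814173 on the minus strand for Hbb-bs and Hbb-bt.
Hba-a2: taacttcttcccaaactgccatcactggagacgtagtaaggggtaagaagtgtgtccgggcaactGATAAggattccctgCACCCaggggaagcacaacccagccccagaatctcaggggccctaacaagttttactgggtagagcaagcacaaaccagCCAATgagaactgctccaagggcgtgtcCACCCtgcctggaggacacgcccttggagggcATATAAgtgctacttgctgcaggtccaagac
Hbb-bs: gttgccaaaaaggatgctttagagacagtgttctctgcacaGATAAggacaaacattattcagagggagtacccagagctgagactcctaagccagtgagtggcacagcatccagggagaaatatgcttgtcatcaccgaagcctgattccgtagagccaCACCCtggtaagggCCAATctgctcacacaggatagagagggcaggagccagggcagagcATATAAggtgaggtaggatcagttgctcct
Hbb-bt: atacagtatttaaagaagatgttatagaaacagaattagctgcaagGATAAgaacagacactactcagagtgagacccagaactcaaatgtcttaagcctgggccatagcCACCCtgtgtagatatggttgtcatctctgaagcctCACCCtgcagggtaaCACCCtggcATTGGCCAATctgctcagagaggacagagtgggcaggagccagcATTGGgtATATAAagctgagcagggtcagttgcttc

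All 4 windows held each of the 4 motifs, and the matching windows of Hba-a1 and Hba-a2 are not separate cases. ATATAA began 31 bases before the start in Hba-a2, 30 in Hbb-bs and 29 in Hbb-bt. CCAAT began at -91 in Hba-a2, at -76 in Hbb-bs and at -75 in Hbb-bt, and Hbb-bt held 2 further copies on the other strand, printed as ATTGG. Hba-a2 held 2 copies of CACCC, Hbb-bs held 1 and Hbb-bt held 3. Among 32851 windows of this length, 9.10% held ATATAA, 33.9% held CCAAT, 52.0% held CACCC and 22.6% held GATAA on either strand, and 0.466% held all 4. The windows of Hbb-bs and Hbb-bt were identical at 71.7% of 244 aligned bases, so the beta genes differed more before their RefSeq starts than in their coding bases. A match of letters is a description and not a mapped binding site, and the part of these motifs in the globin levels was not tested.

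Globin counts spanned more than 3 orders of size between libraries. Their share of all counts was highest in BM CD11b+ cells in both controls, while S3 libraries of BM and spleen overlapped. It was lowest in LSK cells in S3 and in the libraries labelled Ptpn11D61Y/+, while LSK and spleen libraries overlapped in MxCre. It ran from 0.00363% in the LSK library of S3 animal 815 to 15.8% in BM CD11b+ MxCre replicate 2, a 4362-fold range. In LSK cells the share was 0.200% and 0.107% in MxCre, 0.00585% and 0.00376% in the libraries labelled Ptpn11D61Y/+, and 0.00700%, 0.00363% and 0.00445% in S3 animals 540, 815 and 768. In BM CD11b+ cells it was 3.48% and 15.8% in MxCre, 11.7% and 12.5% in the libraries labelled Ptpn11D61Y/+, and 5.34%, 9.25% and 1.68% in S3 animals 540, 815 and 640. In spleen CD11b+ cells it was 0.252% and 0.0677% in MxCre, 0.545% and 0.109% in the libraries labelled Ptpn11D61Y/+, and 1.21%, 1.27% and 2.57% in S3 animals 540, 815 and 640. The Wilson 95% interval of a share was at most ± 3.94% of the share itself, so counting error was small beside the spread between libraries, and it covers counting error only. All 4 genes were among the 10 most abundant genes of BM MxCre replicate 2 and of both BM libraries labelled Ptpn11D61Y/+, while in LSK S3 libraries the highest rank of any of them was 6505. In bulk libraries, fewer cells of a type and less RNA per cell cannot be told apart.

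**Figure D1:**
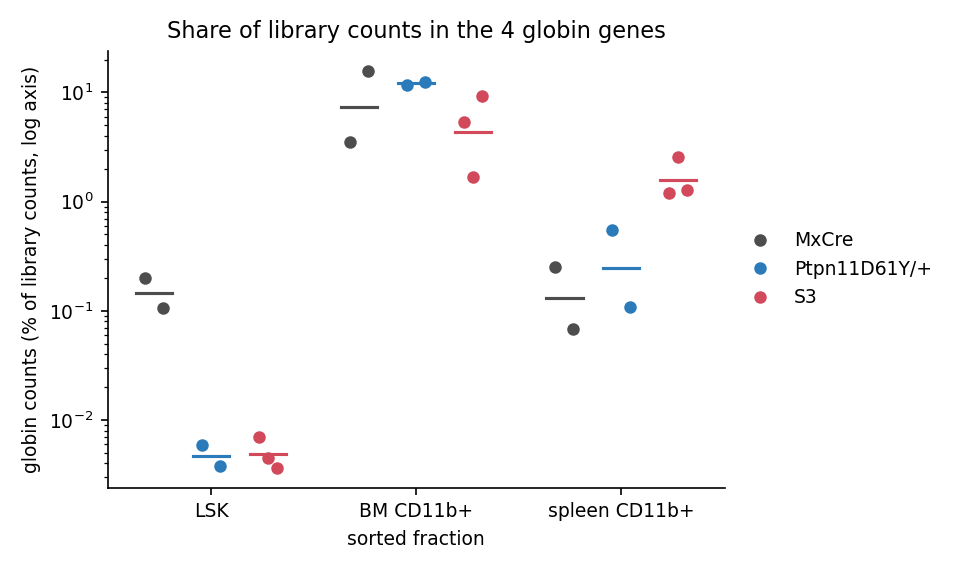
Share of all library counts held by Hba-a1, Hba-a2, Hbb-bs and Hbb-bt (%, log axis) in each of the 21 libraries by sorted fraction, coloured by label; points are libraries and bars are geometric means. The LSK MxCre libraries (0.200% and 0.107%) lie well above the other LSK libraries (0.00363% to 0.00700%), and the spleen S3 libraries (1.21% to 2.57%) lie above every spleen control.

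Ordered by mean share, the groups ran from LSK labelled Ptpn11D61Y/+ (0.0048% ± 0.00147, SD, n = 2) and LSK S3 (0.00503% ± 0.00176, SD, n = 3) through LSK MxCre (0.154% ± 0.0659, n = 2), spleen MxCre (0.160% ± 0.130, n = 2) and spleen labelled Ptpn11D61Y/+ (0.327% ± 0.308, n = 2) to spleen S3 (1.68% ± 0.765, n = 3), BM S3 (5.42% ± 3.79, n = 3), BM MxCre (9.66% ± 8.74, n = 2) and BM labelled Ptpn11D61Y/+ (12.1% ± 0.609, n = 2). Neighbours in this order were separated without overlap at 2 places, between LSK S3 and LSK MxCre and between spleen labelled Ptpn11D61Y/+ and spleen S3. All other neighbours overlapped. The spread within a group was wide, with a 4.55-fold ratio between both BM MxCre libraries, a 4.995-fold ratio between both spleen libraries labelled Ptpn11D61Y/+ and a 5.52-fold ratio across BM S3 libraries.

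Exact two-sided permutation tests compared the log2 share of S3 libraries with controls, in 6 tests. With 3 libraries against 2 the smallest p that such a test can give is 0.1, and with 3 against 4 it is 0.0286. In LSK cells the share was 30.2-fold lower in S3 than in MxCre (exact permutation p = 0.1, adjusted p = 0.2) and did not overlap it. Against MxCre and Ptpn11D61Y/+ libraries together it overlapped (exact permutation p = 0.314, adjusted p = 0.377). In spleen CD11b+ cells the share was 12.1-fold higher in S3 than in MxCre (exact permutation p = 0.1, adjusted p = 0.2) and 8.86-fold higher than in both controls together (exact permutation p = 0.0571, adjusted p = 0.2), with all 3 S3 libraries above all 4 control libraries. The log2 difference from MxCre was 3.598, and it was 4.55 without spleen MxCre replicate 1 and 2.65 without replicate 2. In BM CD11b+ cells S3 overlapped MxCre (exact permutation p = 0.5, adjusted p = 0.5) and both controls together (exact permutation p = 0.257, adjusted p = 0.377). Both tests within a fraction share the MxCre libraries. The smallest adjusted p that these 6 tests could give together is 0.0571, so none could pass 0.05.

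In LSK cells all 4 globin genes were lower in both S3 libraries and libraries labelled Ptpn11D61Y/+ than in MxCre libraries. Hbb-bs, an adult beta globin gene, had 978 and 521 CPM in MxCre, 24.2 and 15.01 CPM in the libraries labelled Ptpn11D61Y/+, and 29.7, 12.6 and 17.5 CPM in S3 animals 540, 815 and 768. Hbb-bt, the other adult beta gene, had 219 and 120.3 CPM in MxCre, 9.12 and 5.63 CPM in the libraries labelled Ptpn11D61Y/+, and 13.7, 10.7 and 7.57 CPM in S3. Both MxCre libraries were high for the beta genes, and the other 5 libraries were low with no overlap. Among all 19555 genes, 12.3% had both MxCre libraries above the other 5 on the log2 CPM scale, and 28.9% had both above the 3 S3 libraries. Hba-a1 had 566 and 297 CPM in MxCre, 20.99 and 13.97 CPM in the libraries labelled Ptpn11D61Y/+, and 20.9, 10.5 and 15.3 CPM in S3. Hba-a2 had 238 and 132 CPM in MxCre, 4.18 and 3.01 CPM in the libraries labelled Ptpn11D61Y/+, and 5.71, 2.503 and 4.21 CPM in S3. The alpha genes showed the same split, with S3 libraries and those labelled Ptpn11D61Y/+ overlapping.

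**Figure D2:**
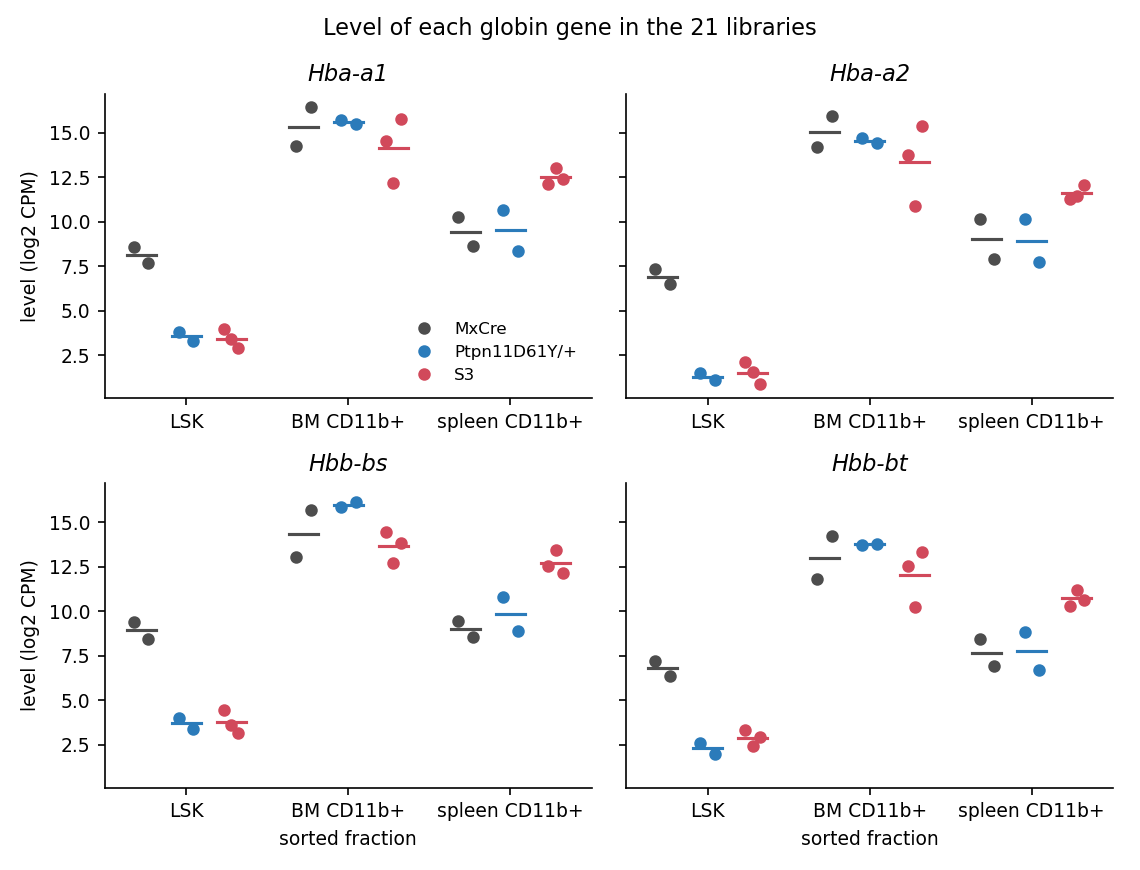
Level of each globin gene (log2 CPM, prior count 2) in the 21 libraries, 1 panel per gene, by sorted fraction and coloured by label; points are libraries and bars are means. In all 4 panels the LSK MxCre libraries lie above the other LSK libraries, and the BM CD11b+ libraries are the highest group of points apart from an overlap with spleen S3.

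In the comparison of S3 with MxCre in LSK cells, 1 of the 4 globin genes was called by edgeR's quasi-likelihood test at a Benjamini-Hochberg adjusted p under 0.05, where 0.0307% of the 19555 genes tested were called. Hbb-bs fell by 5.13 on the log2 scale (standard error 0.82, adjusted p = 0.0356), a 35.1-fold lower level, and ranked 6 among all genes by p. The log2 fold changes of Hba-a1, Hba-a2 and Hbb-bt were -4.70 (standard error 0.93, adjusted p = 0.166), -5.39 (standard error 1.06, adjusted p = 0.166) and -3.90 (standard error 0.85, adjusted p = 0.298), beside a median of 0.01 over all genes. All 4 had an unadjusted p under 0.05, as 777 of all genes did, and DESeq2 called 4 of them and 129 of all genes. The edgeR call of Hbb-bs was lost without any single one of the 5 libraries, with adjusted p from 0.0862 to 0.549, while its log2 fold change stayed between -5.58 and -4.59. The adjusted p ran from 4.74e-09 to 0.646 over 15 alternatives.

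Libraries labelled Ptpn11D61Y/+ against MxCre gave nearly the same sizes in LSK cells, and this comparison shares the MxCre libraries with the one above. The log2 fold changes were -5.25 for Hbb-bs (standard error 0.98, adjusted p = 0.0683), -4.52 for Hbb-bt (standard error 1.03, adjusted p = 0.183), -4.62 for Hba-a1 (standard error 1.10, adjusted p = 0.230) and -5.68 for Hba-a2 (standard error 1.28, adjusted p = 0.168). None of the 4 was called by edgeR, where 0.0614% of all genes were, while all 4 had an unadjusted p under 0.05, as 330 of all genes did. Of the globins and of all genes, limma-voom called 1 and 5, and DESeq2 called 4 and 103. S3 against the libraries labelled Ptpn11D61Y/+ gave log2 fold changes of 0.12, 0.62, -0.08 and 0.29 for Hbb-bs, Hbb-bt, Hba-a1 and Hba-a2, each with an adjusted p of 1 and overlapping libraries. Here 0 of 4 globin genes were called by edgeR, 0 had an unadjusted p under 0.05, and DESeq2 and limma-voom called 0, against 0.0972% of all genes called by edgeR, 1123 with an unadjusted p under 0.05, 248 called by DESeq2 and 171 by limma-voom. The standard errors of these differences were 0.75 to 0.97, and in this fraction changes of -4.52 to -5.68 with standard errors of 0.98 to 1.28 were not called, so changes of that size could go undetected.

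Other erythroid genes did not move as one with the globins in LSK cells. A list of 18 erythroid membrane and related genes (Slc4a1, Epb42, Car1 and others) had a median log2 fold change of 0.01 in S3 against MxCre, with 9 genes higher, 9 lower and 0 called by edgeR. In this list 1 gene had an unadjusted p under 0.05, as 777 of all 19555 genes did. Summed over the list, the MxCre libraries had 1315 and 1012 CPM and the other LSK libraries had 630 to 1554 CPM, with none of the 18 genes at 0 and Car2 the most abundant gene in each. Of 14 genes of heme synthesis and iron supply, 10 were higher and 4 lower, 0 were called, and the median was 0.24. Alas2, which makes the first enzyme of heme synthesis in red cell precursors, had 98.1 and 52.6 CPM in MxCre, 3.33 and 2.19 CPM in the libraries labelled Ptpn11D61Y/+, and 3.53, 1.96 and 2.35 CPM in S3 animals 540, 815 and 768. S3 differed from MxCre by -4.75 on the log2 scale (standard error 1.09, adjusted p = 0.328), so Alas2 showed the split of the globins without passing the test. Slc4a1, the band 3 anion exchanger of red cells, had 120.2 and 84.4 CPM in MxCre, 24.4 and 11.6 CPM in the libraries labelled Ptpn11D61Y/+, and 10.7, 11.7 and 10.9 CPM in S3. Car1, a carbonic anhydrase of early erythroid cells, had 138 and 79.3 CPM in MxCre and 61.3 to 336 CPM in the other LSK libraries, and these overlapped.

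Transcription factors that act on globin genes and the other genes of both clusters were measured as well. Of 13 regulators in S3 against MxCre LSK cells, 6 were higher, 7 were lower, 0 were called and 0 had an unadjusted p under 0.05, with a median of -0.08. Klf1, which activates the adult beta gene, had 24.8 and 18.3 CPM in MxCre and 16.1 to 54.8 CPM in the other LSK libraries, and Gata1 had 26.8 and 21.7 CPM in MxCre and 30.8 to 68.1 CPM in the others. Of the 7 other genes of the globin clusters, 5 passed the filter on low counts and 0 were called by edgeR, with 1 at an unadjusted p under 0.05. Hbq1b, a theta globin gene, had 0.810 and 0.337 CPM in LSK MxCre libraries and at most 0.107 CPM in the others, and the embryonic genes Hba-x, Hbb-y and Hbb-bh1 stayed at or under 0.0198 CPM in all LSK libraries. Myeloid markers were counted in the same LSK libraries. S100a8 had 615 and 466 CPM in MxCre, 122 and 83.7 CPM in the libraries labelled Ptpn11D61Y/+, and 249.7, 396 and 317 CPM in S3 animals 540, 815 and 768, and the 7 myeloid markers had a median log2 fold change of -0.65 in S3 and -1.92 in the libraries labelled Ptpn11D61Y/+. edgeR called 0 of the 7 in either comparison with MxCre, where 0.0307% and 0.0614% of all genes were called. At an unadjusted p under 0.05 there were 1 and 5 of the 7, beside 777 and 330 of all genes. Of the red pulp macrophage markers, C1qa, C1qb and Adgre1 had log2 fold changes of -3.68, -3.65 and -3.03 in the libraries labelled Ptpn11D61Y/+ against MxCre. Spic, Hmox1 and Cd163 were at -0.86, -0.50 and -0.01, and Vcam1, Slc40a1 and Cd5l at 0.47, 0.16 and 0.05. In S3 against MxCre, C1qa, C1qb and Adgre1 were at -0.83, -0.67 and 0.55. There Spic, Hmox1 and Cd163 were at -0.59, -0.05 and 0.12, and Vcam1, Slc40a1 and Cd5l at 1.31, 0.93 and 3.35. No macrophage marker was called by edgeR in either comparison. The part of these other cells in the globin difference was not tested.

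In spleen CD11b+ cells all 4 globin genes were higher in S3 than in MxCre libraries. Hbb-bs had 520.1 and 225 CPM in MxCre, 1946 and 466 CPM in the libraries labelled Ptpn11D61Y/+, and 5118, 3612 and 11578 CPM in S3 animals 540, 815 and 640. Hbb-bt had 256 and 72.0 CPM in MxCre, 504 and 101 CPM in the libraries labelled Ptpn11D61Y/+, and 1089, 1298 and 2476 CPM in S3. The 3 S3 libraries were above all 4 controls for both beta genes, and animal 640 was the highest. Of all 19555 genes, 3.41% had the 3 S3 libraries above all 4 controls on the log2 CPM scale, and 20.2% had them above both MxCre libraries. Hba-a1 had 898 and 235 CPM in MxCre, 1769 and 321 CPM in the libraries labelled Ptpn11D61Y/+, and 3815, 4395 and 8627 CPM in S3. Hba-a2 had 845 and 145 CPM in MxCre, 1235 and 202 CPM in the libraries labelled Ptpn11D61Y/+, and 2084, 3441 and 2979 CPM in S3. The alpha genes too were above all controls in the 3 S3 libraries, with the highest Hba-a2 level in animal 815.

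Of these 4 genes, 1 was called by edgeR in S3 against MxCre, where 4.19% of all genes were called. Hbb-bs rose 13.3-fold in S3, or 3.73 on the log2 scale (standard error 0.88, adjusted p = 0.0278). The log2 fold changes of Hba-a1, Hba-a2 and Hbb-bt were 2.91 (standard error 0.98, adjusted p = 0.0909), 2.20 (standard error 1.04, adjusted p = 0.198) and 2.90 (standard error 0.92, adjusted p = 0.0766), beside a median of 0.32 over all genes. All 4 had an unadjusted p under 0.05, as 4945 of all genes did. DESeq2 called 3 of them and 3369 of all genes, and limma-voom called 3 and 1327. The call of Hbb-bs held without the library of animal 815 and was lost without any other single library, with adjusted p from 0.0338 to 0.12 and log2 fold changes from 3.28 to 4.26, and it was lost in a fit of these 5 libraries alone. Over 16 alternatives its adjusted p ran from 3.42e-05 to 0.258. Against the libraries labelled Ptpn11D61Y/+, the log2 fold changes of S3 were 2.66 for Hbb-bs (standard error 0.83, adjusted p = 0.360), 2.62 for Hbb-bt, 2.63 for Hba-a1 and 2.24 for Hba-a2. None of the 4 was called by edgeR, where 0.00511% of all genes were, all 4 had an unadjusted p under 0.05, as 1736 of all genes did. Of the globins and of all genes, limma-voom called 0 and 6, and DESeq2 called 1 and 387. Libraries labelled Ptpn11D61Y/+ against MxCre, which share their libraries with both comparisons above, gave log2 fold changes of 1.07 for Hbb-bs, 0.28 for Hbb-bt, 0.28 for Hba-a1 and -0.05 for Hba-a2, with overlapping libraries. In that comparison edgeR called 0 of 4, 0 had an unadjusted p under 0.05, and DESeq2 and limma-voom called 0, while edgeR called 5.11% of all genes, DESeq2 3329 and limma-voom 1692, and 4836 had an unadjusted p under 0.05.

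**Figure D3:**
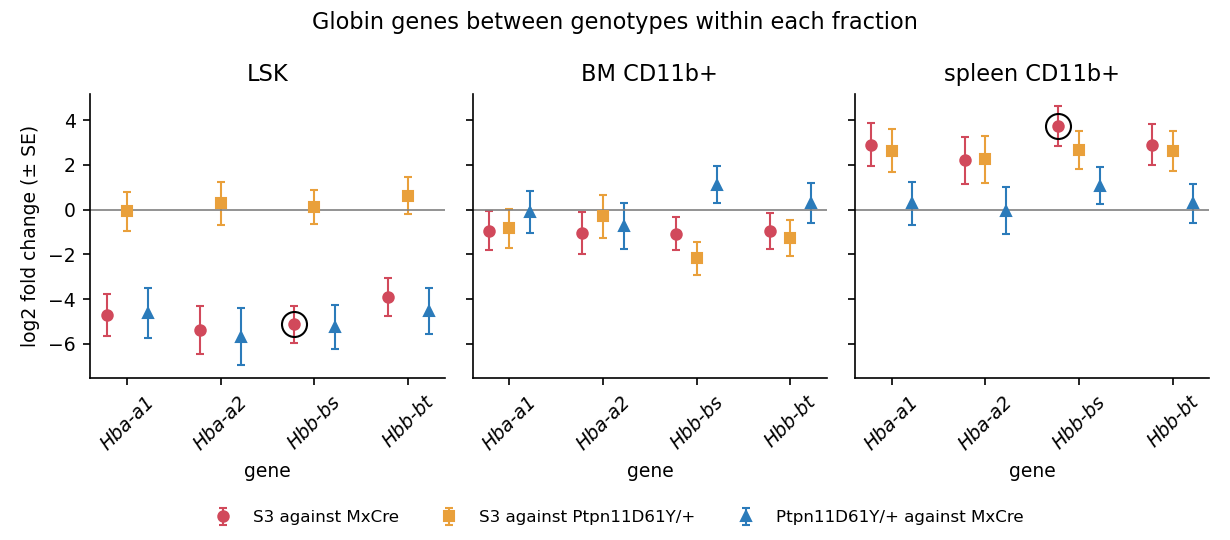
Log2 fold change of each globin gene within each fraction for 3 comparisons of labels; error bars are standard errors and a black ring marks an adjusted p under 0.05 in edgeR's quasi-likelihood test. The ringed points are Hbb-bs in S3 against MxCre, at -5.13 in LSK cells and 3.73 in spleen CD11b+ cells.

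The spleen difference ran with that of erythroid genes in general. All 18 genes of the erythroid list were higher in S3 than in MxCre spleen CD11b+ cells, with a median log2 fold change of 6.64, beside 2.91 for the globins and 0.32 for all genes. All 18 had an unadjusted p under 0.05, as 4945 of all 19555 genes did, and 5 were called by edgeR, where 4.19% of all genes were. Among the called genes were Epb42 (log2 fold change 8.30) and Add2 (9.80), which act in the red cell membrane skeleton, and Trim10 (7.87) and Trim58 (12.97), which are expressed in erythroblasts. These 4 were at 0 in spleen MxCre replicate 1 and had at most 43 counts in replicate 2, so how large each change was depends on the prior count. In spleen MxCre replicate 1, 7 of the 18 genes were at 0. Trim58 was at 0 in both MxCre libraries and so could not come out lower, and Epb41 was the most abundant gene of the list in both. Summed over the list, the MxCre libraries had 104 and 75.4 CPM, those labelled Ptpn11D61Y/+ had 469.7 and 125 CPM, and S3 animals 540, 815 and 640 had 668, 324 and 9813 CPM. Animal 640 thus had most of the erythroid RNA of the S3 libraries and the most globin RNA, while the second library labelled Ptpn11D61Y/+ was near the MxCre libraries in both.

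Of 14 genes of heme synthesis and iron supply, 12 were higher and 2 lower in S3 than in MxCre spleen cells, 8 had an unadjusted p under 0.05, beside 4945 of all genes, and 1 was called. Over all genes 4945 of 19555 had such a p and 4.19% were called, so a single call among the 14 heme genes or the 13 regulators is near the share of all genes. The called heme gene was Alas2, with 4.59 and 4.01 CPM in MxCre, 106 and 15.8 CPM in the libraries labelled Ptpn11D61Y/+, and 207, 73.0 and 1094 CPM in S3 animals 540, 815 and 640. It rose by 6.15 on the log2 scale (standard error 1.36, adjusted p = 0.0219), against a median of 1.84 for this list. Among 13 regulators 10 were higher and 3 lower, with a median of 1.71, and only Lmo2, a partner of Gata1 and Tal1, was called (log2 fold change 1.71, adjusted p = 0.0414). Of the 5 tested genes of the globin clusters, all were higher and Hbq1b was called (log2 fold change 6.55, adjusted p = 0.0437). Hbq1b had 0 and 0.104 CPM in MxCre libraries, and 3.22, 1.35 and 21.6 CPM in S3 animals 540, 815 and 640. The embryonic genes Hba-x, Hbb-y and Hbb-bh1 were at 0 in both MxCre libraries and could not come out lower, so their direction was fixed in advance. How large the differences of these cluster genes were depends on the prior count too. Against the libraries labelled Ptpn11D61Y/+, all 18 erythroid genes and all 14 heme genes were higher in S3, with medians of 4.72 and 2.08, and 0 of either list were called by edgeR, although 17 and 8 had an unadjusted p under 0.05, as 1736 of all genes did. Since erythroid markers moved with the globin genes in the spleen, the values stand side by side, and the part of erythroid cells in the result was not tested.

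In BM CD11b+ cells every library had at least 2 globin genes among its 10 most abundant genes, and no difference between labels passed the test. Hbb-bs had 5807 and 37498 CPM in MxCre, 45280 and 57906 CPM in the libraries labelled Ptpn11D61Y/+, and 18192, 10771 and 7736 CPM in S3 animals 540, 815 and 640. Hbb-bt had 2451 and 13573 CPM in MxCre, 10154 and 11717 CPM in the libraries labelled Ptpn11D61Y/+, and 4910 and 7596 CPM in S3 animals 540 and 815 and 1395 CPM in animal 640. Every S3 library was below both libraries labelled Ptpn11D61Y/+ for the beta genes, as was so for 18.2% of all 19555 genes on the log2 CPM scale, while the MxCre libraries spanned a range that overlapped S3. Hba-a1 had 13513 and 62873 CPM in MxCre, 40732 and 37993 CPM in the libraries labelled Ptpn11D61Y/+, and 19037, 41824 and 5429 CPM in S3. Hba-a2 had 13017 and 44443 CPM in MxCre, 20447 and 17615 CPM in the libraries labelled Ptpn11D61Y/+, and 11215, 32288 and 2206 CPM in S3. The alpha genes overlapped between all labels, with animal 815 high and animal 640 low.

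The log2 fold changes of S3 against MxCre in BM CD11b+ cells were -1.07 for Hbb-bs, -0.96 for Hbb-bt, -0.94 for Hba-a1 and -1.04 for Hba-a2 (standard errors 0.74 to 0.94), beside a median of 0.18 over all genes. edgeR called 0 of 4 globin genes and 0% of all genes, with 0 globin genes and 3022 of all genes at an unadjusted p under 0.05. DESeq2 called 933 and limma-voom 19 of all genes, and 0 of the globins. The direction rested on BM MxCre replicate 2, since without it the 4 log2 fold changes ran from 0.07 to 0.80. Against the libraries labelled Ptpn11D61Y/+, S3 had log2 fold changes of -2.17 for Hbb-bs (standard error 0.74, adjusted p = 0.513), -1.26 for Hbb-bt, -0.84 for Hba-a1 and -0.31 for Hba-a2. Again edgeR called 0 of 4 globin genes and 0% of all genes, with 1 globin gene and 1608 of all genes at an unadjusted p under 0.05, and DESeq2 called 247 and limma-voom 3 of all genes, and 0 of the globins. Libraries labelled Ptpn11D61Y/+ against MxCre gave 1.10 for Hbb-bs, 0.30 for Hbb-bt, -0.10 for Hba-a1 and -0.74 for Hba-a2, with a median of 0.27 over all genes. There edgeR called 0 of 4 and 0% of all genes, with 0 globin genes and 4419 of all genes at an unadjusted p under 0.05, and DESeq2 called 1840 and limma-voom 7 of all genes, and 0 of the globins. These 3 comparisons share their libraries.

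Beside the globins in BM CD11b+ cells, all 18 erythroid genes and all 14 heme genes were lower in S3 than in the libraries labelled Ptpn11D61Y/+, with medians of -2.25 and -1.42 and 0 called by edgeR in either list. At an unadjusted p under 0.05 there were 5 erythroid and 5 heme genes, beside 1608 of all 19555 genes. The erythroid list summed to 232 and 4886 CPM in MxCre, 9513 and 10746 CPM in the libraries labelled Ptpn11D61Y/+, and 3986, 2975 and 914 CPM in S3 animals 540, 815 and 640. Slc4a1 was the most abundant gene of the list in 5 of these 7 libraries and Epb41 in the other two. Animal 640 was lowest among S3 libraries in both the erythroid and the globin counts of the BM and highest in both in the spleen.

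Between fractions, the globin genes were higher in BM CD11b+ than in LSK cells in every genotype. The log2 fold changes in S3 were 9.96 for Hbb-bs, 9.55 for Hbb-bt, 11.27 for Hba-a1 and 12.67 for Hba-a2, and all 4 were called (edgeR adjusted p at most 3.29e-05), where 27.1% of all genes were. In MxCre they were 5.89, 6.61, 7.51 and 8.32, and 4 of 4 were called where 36.9% of all genes were. Without BM MxCre replicate 2 they were 4.01, 4.91, 6.02 and 7.19, still with 4 called. In the libraries labelled Ptpn11D61Y/+ they were 12.25, 11.42, 12.03 and 13.26, and 4 of 4 were called where 19.7% of all genes were. Of the 14 heme genes, 8 were called higher in S3, 8 in MxCre and 12 in the libraries labelled Ptpn11D61Y/+, and of the 18 erythroid genes 4, 2 and 6 were.

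Spleen CD11b+ cells were compared with LSK cells within each genotype as well, and the direct test of S3 against MxCre between these fractions is given further on. The same difference for the libraries labelled Ptpn11D61Y/+ against MxCre was not tested. In S3 the log2 fold changes were 8.94 for Hbb-bs, 7.82 for Hbb-bt, 9.06 for Hba-a1 and 10.04 for Hba-a2, and 4 of 4 were called where 27.4% of all genes were. In the libraries labelled Ptpn11D61Y/+ they were 6.404, 5.81, 6.35 and 8.09, and 4 of 4 were called where 18.1% of all genes were. Without LSK replicate 2 of this label 2 of the 4 stayed called, Hbb-bs and Hba-a2, and without spleen replicate 1 the log2 fold changes were 5.135, 4.34, 4.76 and 6.37 with 4 called. In MxCre they were 0.08, 1.02, 1.45 and 2.46, beside a median of -0.34 over all genes, and edgeR called 0 of 4 where 41.6% of all genes were called. There 1 globin gene, Hba-a2, and 10100 of all genes had an unadjusted p under 0.05. Of the globins and of all genes, limma-voom called 0 and 9133, and DESeq2 called 1 and 9741. Fold changes between fractions include a scaling of the libraries by TMM factors, which the CPM values and shares do not. These factors were 1.476 and 1.478 in the LSK MxCre libraries and 0.743 and 0.599 in the spleen MxCre libraries. By CPM, Hbb-bs had 978 and 521 in LSK and 520.1 and 225 in spleen MxCre libraries, so it was lower in the spleen on that scale. In MxCre the erythroid list went the other way, with 17 of 18 genes lower in the spleen fraction, 5 called lower and a median of -3.91. In S3, 17 of the 18 were higher, 5 were called higher and the median was 2.45. Of all 19555 genes, 4377 were called lower in MxCre and 3090 were called higher in S3. The 5 calls among 18 genes in MxCre are thus near the share of all genes.

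Between both CD11b+ fractions the globin genes were lower in the spleen in the controls. In MxCre the log2 fold changes of spleen against BM were -5.81 for Hbb-bs, -5.59 for Hbb-bt, -6.06 for Hba-a1 and -5.86 for Hba-a2, and 4 of 4 were called where 0.915% of all genes were. These calls went to 0 without either spleen MxCre library, in a fit of these 4 libraries alone, without the libraries with mixed sex-linked counts, and under a replicate block, where Hbb-bs had a log2 fold change of -5.73 and an adjusted p of 0.0853. In the libraries labelled Ptpn11D61Y/+ they were -5.85, -5.61, -5.68 and -5.18, and 4 of 4 were called where 3.69% of all genes were, while without any single one of these libraries 0 or 1 was called. In S3 they were -1.01, -1.73, -2.21 and -2.62, edgeR called 0 of 4 where 0.0563% of all genes were called, 3 globins and 1910 of all genes had an unadjusted p under 0.05, and the libraries overlapped. DESeq2 called 1 of the globins and 547 genes, and limma-voom 0 and 14. All 18 erythroid genes and all 14 heme genes were lower in the spleen in both controls, with erythroid medians of -6.41 in each, whereas in S3 the erythroid median was 0.57 with 12 genes higher, 6 lower and 0 called.

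The difference between fractions of the S3 against MxCre contrast was tested directly. Between spleen CD11b+ and LSK cells, the contrast differed by 8.86 on the log2 scale for Hbb-bs (standard error 1.25, adjusted p = 0.0469), and 1 of 4 globin genes was called where 0.00511% of all genes were, so that Hbb-bs was the called gene of all 19555. The differences were 7.61 for Hba-a1 (standard error 1.40, adjusted p = 0.0840), 7.58 for Hba-a2 (standard error 1.53, adjusted p = 0.0896) and 6.80 for Hbb-bt (standard error 1.28, adjusted p = 0.0857), beside a median of 0.31 over all genes. Under a replicate block (the animal, or the number within a label) the difference of Hbb-bs was 8.87 with an adjusted p of 0.155, and 0 of 4 were called. Leaving out each of 10 libraries in turn kept the call in 3 cases (without spleen MxCre replicate 2, spleen S3 animal 815 or spleen S3 animal 640), with adjusted p from 0.0199 to 0.228. Between BM CD11b+ and LSK cells the differences were 2.94 to 4.34, edgeR called 0 of 4 and 0% of all genes, all 4 globins and 1587 of all genes had an unadjusted p under 0.05, and DESeq2 called 1 of the globins and 146 genes and limma-voom 0 and 4. Between the CD11b+ fractions of spleen and BM they were 3.24 to 4.80, edgeR called 0 of 4 and 0% of all genes, all 4 globins and 2100 of all genes had an unadjusted p under 0.05, and DESeq2 called 2 of the globins and 514 genes and limma-voom 0 and 1. These differences share the MxCre and S3 libraries of each fraction.

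Globin counts were then set beside those of the 18 erythroid genes, as a ratio of summed CPM in each library. The ratio was 1.52 and 1.06 in LSK MxCre libraries, 0.0465 and 0.0322 in LSK libraries labelled Ptpn11D61Y/+, and 0.0451, 0.0576 and 0.0446 in LSK S3 animals 540, 815 and 768. BM CD11b+ libraries had ratios of 150.2 and 32.4 in MxCre, 12.3 and 11.7 in the libraries labelled Ptpn11D61Y/+, and 13.4, 31.1 and 18.3 in S3 animals 540, 815 and 640. Spleen CD11b+ libraries had ratios of 24.3 and 8.98 in MxCre, 11.6 and 8.73 in the libraries labelled Ptpn11D61Y/+, and 18.1, 39.4 and 2.61 in S3 animals 540, 815 and 640. The LSK libraries had the least globin RNA per erythroid gene RNA, with both MxCre libraries above the rest of that fraction. Among CD11b+ libraries the highest ratios were those of BM MxCre replicate 1 and of the spleen library of animal 815. The spleen library of animal 640, with the most erythroid RNA in that organ, had the lowest ratio of the CD11b+ libraries. A sum of CPM is governed by its most abundant genes, which were Car2 in LSK cells, Slc4a1 or Epb41 in BM cells, and Epb41, Car2 or Slc4a1 in spleen cells.

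**Figure D4:**
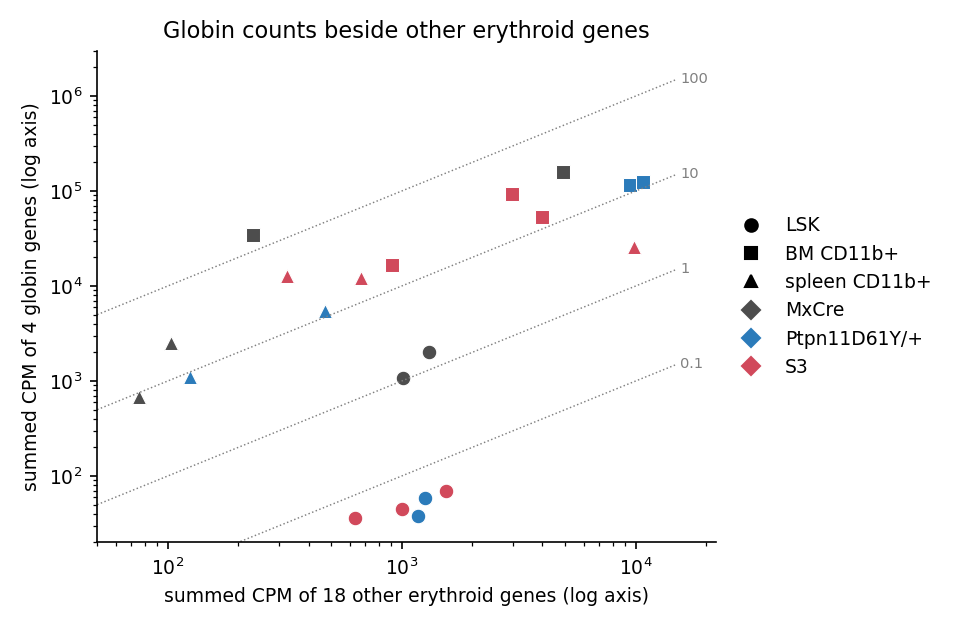
Summed CPM of the 4 globin genes against summed CPM of 18 other erythroid genes in each library (both axes log); shapes are fractions, colours are labels and dotted lines are ratios of 0.1, 1, 10 and 100. The 5 LSK libraries other than MxCre lie below the line at 0.1, both LSK MxCre libraries lie just above the line at 1, and the CD11b+ libraries lie between 2.61 and 150.2.

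The balance of alpha and beta counts differed between libraries as well. Alpha genes held 40.2% and 40.1% of globin counts in LSK MxCre libraries and 35.7% to 45.2% over all LSK libraries. BM alpha shares were 76.3% and 67.8% in MxCre, 52.5% and 44.4% in the libraries labelled Ptpn11D61Y/+, and 56.7%, 80.1% and 45.5% in S3 animals 540, 815 and 640. Spleen alpha shares were 69.2% and 56.1% in MxCre, 55.1% and 48.0% in the libraries labelled Ptpn11D61Y/+, and 48.7%, 61.5% and 45.2% in S3 animals 540, 815 and 640. The highest alpha shares, 80.1%, 76.3% and 69.2%, belonged to the 3 CD11b+ libraries with the fewest genes detected, which come from different labels and fractions, and the cause was not tested. Per exonic length the alpha share changed by little, from 34.4% to 80.1% over the 21 libraries.

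Within the pairs the split is uncertain because the copies share reads. Hba-a1 held 69.2% and 70.4% of alpha counts in LSK MxCre libraries and 78.4% to 83.4% in the other LSK libraries, against 50.9% to 74.3% in CD11b+ libraries. Hbb-bs held 81.2% and 81.7% of beta counts in LSK MxCre libraries, 54.0% to 72.7% in the other LSK libraries and 58.6% to 84.7% in CD11b+ libraries. In LSK cells the MxCre libraries thus stood apart from the others in this split too, in opposite directions for both pairs. On the scale of RPKM (CPM per kilobase of exon), Hbb-bs had the highest level of the 4 genes in 7 of 7 LSK, 4 of 7 BM and 5 of 7 spleen libraries. Hbb-bt had the lowest in all 14 CD11b+ libraries, and Hba-a2 had the lowest in 5 of 7 LSK libraries.

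**Figure D5:**
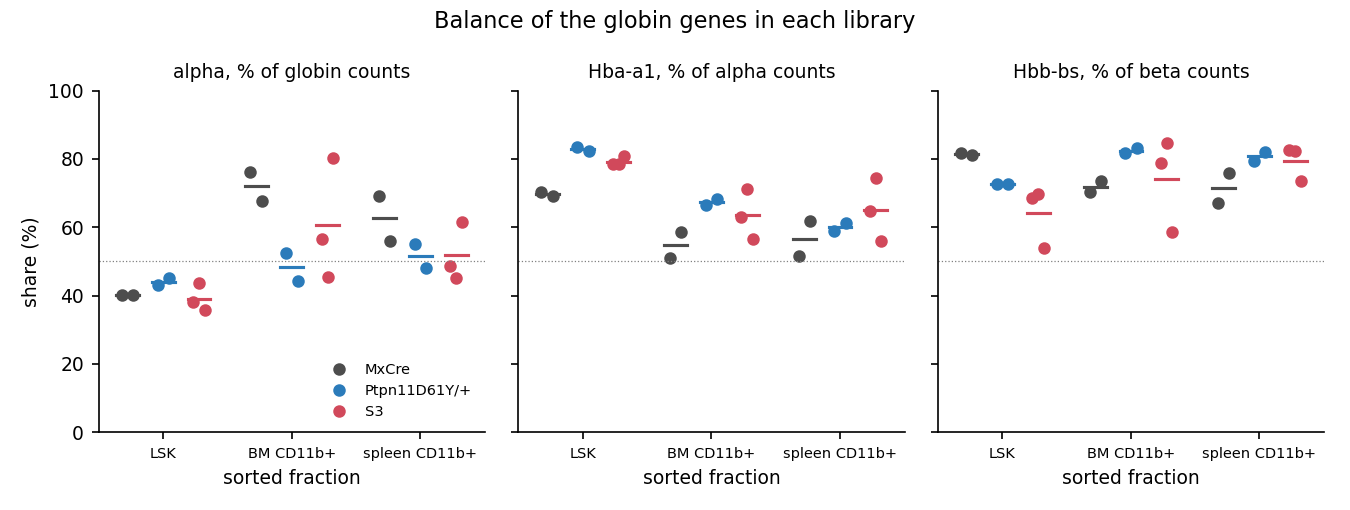
Alpha share of globin counts, Hba-a1 share of alpha counts and Hbb-bs share of beta counts (%) in each library by fraction, coloured by label; points are libraries, bars are means and the dotted line is at 50%. Alpha shares stay between 35.7% and 45.2% in LSK cells and spread from 44.4% to 80.1% in CD11b+ cells.

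Log2 CPM levels of the 4 genes followed each other closely, with Pearson correlations of 0.980 to 0.997 over the 21 libraries and 0.908 to 0.997 over the 14 CD11b+ libraries, the lowest being Hba-a2 with Hbb-bs in both. These describe libraries that share fractions and animals, and the copies share reads. Among the 15 genes most like the mean of the 4 over the 21 libraries were the ubiquitin ligase gene March2 (Pearson correlation 0.944), 1700047M11Rik (0.941), Mkrn1 (0.941) and Apol11b (0.939). Mmp8, a neutrophil collagenase (0.936), and Ly6g, a neutrophil surface protein (0.924), were among these 15 too, so that over all libraries the measure follows the difference between LSK and CD11b+ cells. Over the 14 CD11b+ libraries alone, the 15 most alike included Pdzk1ip1 (0.975), Ube2l6 (0.951) and the theta globin gene Hbq1a (0.938).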

How the data were processed

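RNA was sequenced from LSK, BM CD11b+ and spleen CD11b+ cells, and the authors deposited 1 table of raw counts per Ensembl gene for each of the 21 libraries, without normalization. CD11b+ cells were enriched on magnetic columns. The submitters' processing notes name bcl2fastq 2.20.0.422, FastQC 0.11.9, Trim Galore 0.6.5, STAR 2.5.3a and limma, with mm10 as the build. The counting program, annotation, use of strand and handling of reads with several matches are not given in the sources used here. Symbols matched 45143 of 45706 identifiers.

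The count test was edgeR 4.0.16 under R 4.3.3. The filter filterByExpr (minimum count 10, minimum total 15) left 19555 genes, all 4 globins among them, and libraries were scaled by TMM. A robust quasi-likelihood fit with 1 coefficient per fraction and label covered all 21 libraries (12 residual degrees of freedom). Genes with a Benjamini-Hochberg adjusted p under 0.05 were called. Levels in log2 CPM use the TMM factors and a prior count of 2. CPM and shares are relative to all counts of a library, without these factors. Shares were compared by exact permutation tests. DESeq2 1.42.0 and limma-voom (limma 3.58.1) were alternatives, together with other normalizations, filters, sample choices, summed paralogs and replicate blocks. The outcome of a check of the test on simulated data is not reported here, and no result rests on it.

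The globin genes and the gene lists were chosen with earlier results of these data known. Any globin gene or list member could be named, and the 15 genes most correlated with the mean globin level over 21 and over 14 libraries. Some genes that met this rule are not reported here. Lists are described by counts and medians. Of 15 heme genes, 14 matched. Lists of B cell, T cell, platelet and other globin superfamily genes are given at the end. The animal number in the S3 labels entered only as a block in an alternative fit, and deviations from group means correlated between fractions at 0.07 to 0.11 for animal 540, -0.10 to 0.41 for animal 815 and 0.33 for animal 640.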

Additional observations from a re-analysis of the deposited data

Results flagged for a closer look

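The 4 globin genes were singled out because one contrast went in opposite directions in 2 fractions. S3 libraries were below MxCre libraries in every case in LSK cells and above them in every case in spleen CD11b+ cells, as was so for 28.9% and 20.2% of all 19555 genes in the fractions taken 1 at a time. The share of all genes that met both at once is not given here. The difference between both log2 fold changes was 8.86 for Hbb-bs, which passed the test (edgeR adjusted p = 0.0469), and 7.61 for Hba-a1, 7.58 for Hba-a2 and 6.80 for Hbb-bt, which did not (adjusted p = 0.0840, 0.0896 and 0.0857). Under a replicate block the adjusted p of Hbb-bs was 0.155. The flag and this test rest on the same difference, so the test is no independent support for it. In LSK cells the libraries labelled Ptpn11D61Y/+ lay with S3, and in spleen CD11b+ cells they overlapped MxCre.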

How the results depend on the processing

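Counts are globin genes called of 4, with all genes called by the same tool in parentheses. With DESeq2 they were 4 (129) for S3 against MxCre and 4 (103) for Ptpn11D61Y/+ against MxCre in LSK cells, 3 (3369) for S3 against MxCre and 1 (387) for S3 against Ptpn11D61Y/+ in spleen, 1 (547) for spleen against BM in S3, 1 (9741) for spleen against LSK in MxCre, and 4 (827), 1 (146) and 2 (514) for the differences of S3 against MxCre between spleen and LSK, BM and LSK, and spleen and BM. With limma-voom they were 1 (5) for Ptpn11D61Y/+ against MxCre in LSK, 3 (1327) for S3 against MxCre in spleen and 3 (50) for the spleen-LSK difference, which was also 3 with library size alone. Without a filter, Ptpn11D61Y/+ against MxCre in LSK gave 1. With paralogs summed, S3 against MxCre gave 0 of 2 pairs in LSK and 2 in spleen, and the spleen-LSK difference 0. Fitting only the groups compared gave 4 for S3 and 1 for Ptpn11D61Y/+ against MxCre in LSK, 0 for S3 against MxCre in spleen, 0 for spleen against BM in MxCre and 4 for the spleen-LSK difference. With both controls together, S3 gave 0 in LSK, 0 in spleen and 0 for the spleen-LSK difference.

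A replicate block (animal or number within its label) gave 0 for spleen against BM in MxCre, 3 for it in Ptpn11D61Y/+ and 0 for the spleen-LSK difference, and changed no other count. The shared number of MxCre and Ptpn11D61Y/+ libraries as a block gave 4 in LSK and 0 in both other fractions. Same-numbered libraries of these labels did not deviate together (correlations of -0.17 to 0.06 between fractions and -0.04 to 0.00 between labels), so they share only a number. No paired analysis was possible because S3 animals share no number with the controls, where these are compared.

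Chosen after seeing the data, leaving out together the 3 libraries labelled with animal 540 and BM MxCre replicate 2 gave 0 for S3 against MxCre in LSK, 0 for spleen against BM in MxCre and 0 for the spleen-LSK difference. In BM, S3 against MxCre then reversed to 0.64 for Hba-a1, 0.27 for Hba-a2, 0.34 for Hbb-bs and 0.69 for Hbb-bt, and the log2 share to 0.18. Leaving out the 3 libraries with the fewest genes, also chosen after seeing the data, gave 4 for the spleen-LSK difference, and log2 share differences of S3 against MxCre of -2.40 in BM and 4.55 in spleen.

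Leaving out each library in turn gave, for S3 against MxCre, 0 to 0 in LSK, 0 to 0 in BM and 0 to 1 in spleen. Spleen against BM gave 0 to 4 in MxCre, 0 to 1 in Ptpn11D61Y/+ and 0 to 1 in S3, and spleen against LSK gave 2 to 4 in Ptpn11D61Y/+. The differences gave 0 to 1 between spleen and LSK and 0 to 1 between BM and LSK. In BM CD11b+ cells the log2 fold changes of S3 against MxCre ran from -1.93 to 0.53 for Hba-a1, -2.36 to 0.0732 for Hba-a2, -1.85 to 0.80 for Hbb-bs and -1.70 to 0.72 for Hbb-bt, and Hba-a2 against Ptpn11D61Y/+ from -1.63 to 0.23. The log2 share of S3 against MxCre ran from -1.86 to 0.32 in BM and 2.65 to 4.55 in spleen. The causes were not tested. All 4 genes stayed called in BM against LSK in the 3 labels, and in spleen against LSK in S3, without each library. Each group held 2 or 3 libraries, and neither this number nor the counts per library were tested as limits on detection.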

Other observations

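Markers of further cell types were counted beside the globins. In LSK cells the 5 platelet and megakaryocyte genes were all higher in S3 than in MxCre, with a median log2 fold change of 1.77, and all 5 B cell genes were lower, with a median of -1.27. Of the T cell genes 2 were higher and 3 lower, with a median of -1.04. In spleen CD11b+ cells the medians of S3 against MxCre were 0.85 for platelet, 1.93 for B cell and 0.93 for T cell genes. In BM CD11b+ cells they were -0.32, -0.55 and 1.44. edgeR called 0 genes of these 3 lists in the 3 comparisons, and at an unadjusted p under 0.05 there were 1 platelet, 1 B cell and 1 T cell gene in LSK, 2, 0 and 1 in BM and 1, 2 and 1 in spleen. Over all 19555 genes such a p was reached by 777 in LSK, 3022 in BM and 4945 in spleen, so counts of 1 in 5 genes are near or below the share of all genes in spleen. Of 4 other globin superfamily genes, 3 were tested, with medians of -0.31 for LSK cells, 1.27 for BM and 0.33 for spleen CD11b+ cells, 0 called, and 0, 1 and 1 at an unadjusted p under 0.05. The 9 red pulp macrophage markers had a median log2 fold change of -2.72 in BM CD11b+ cells, where all 9 were lower in S3 than in MxCre, 7 at an unadjusted p under 0.05 and 0 called, and of 0.10 in spleen CD11b+ cells. For S3 against MxCre in spleen, Csf3r of the myeloid markers was called lower (log2 fold change -3.49, edgeR adjusted p = 0.0137). Hoxa9 of the LSK markers was called higher there (7.42, edgeR adjusted p = 0.00987). No other gene of either list was called, where 4.19% of all genes were.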
